A study of Rattus norvegicus with 12 samples.

Results

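Transcripts of 10 islet and gut peptide hormone genes were measured in a pair of rat insulinoma lines. The genes were Ins1, Ins2, Iapp, Gcg, Sst, Ppy, Pyy, Cck, Sct and Penk, chosen by name, and each was read by 1 probe set carrying its symbol alone, giving 10 probe sets of 31099 on the array and 10 genes of 14218. CRI-G1 cells came from a transplantable rat islet tumour. The parental line, CRI-G1-RR, is rotenone resistant, and the subclone CRI-G1-RS, which arose from it in culture and was frozen as a separate line, is rotenone sensitive. Rotenone inhibits complex I of the mitochondrial respiratory chain, but no cells on these arrays were treated. Each line was grown in high glucose medium with serum and sampled at 6 passages, so there were 6 arrays per line and 12 in all, and the replicates are passages of 1 line, not separate derivations of it. Ins2 and Penk were higher in CRI-G1-RS, Sct and Cck were lower, Ins1 and Gcg were bright in both lines, and Sst, Ppy and Pyy were dim in both.

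An islet contains beta cells, which make insulin and amylin, alpha cells, which make glucagon, delta cells, which make somatostatin, and cells that make pancreatic polypeptide. Enteroendocrine cells of the gut use a related set of transcription factors and secrete secretin, cholecystokinin, peptide YY and, from the same proglucagon gene as alpha cells, glucagon-like peptides. All of these peptides are cut from larger precursors in dense core granules by convertases such as Pcsk1 and Pcsk2. Rats carry a pair of insulin genes, Ins1 and Ins2, whose coding and promoter sequences are closely related.

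The promoters of the insulin genes, Iapp and Gcg are shown as background, and whether they bear on any change between the lines was not tested. Ins1 and Ins2 are alike at most aligned positions of the 250 bases before the start, and sequence further away was not compared. The 250 bases before the annotated start, from RefSeq on the GRCr8 assembly and written 5′ to 3′ on the gene's strand, lie at chr1:261185869-261186118 on the plus strand for Ins1, chr1:207273806-207274055 on the minus strand for Ins2, chr4:176967847-176968096 on the plus strand for Iapp and chr3:67531534-67531783 on the minus strand for Gcg. Capitals mark matches, on either strand, to GCCATCTG (the insulin E box), GCTTCAGCC (part of the insulin C1 element), TGACGTC (a cAMP response element without its last base), TATAAA (the TATA box) and TAAT (the core of homeodomain sites).
Ins1: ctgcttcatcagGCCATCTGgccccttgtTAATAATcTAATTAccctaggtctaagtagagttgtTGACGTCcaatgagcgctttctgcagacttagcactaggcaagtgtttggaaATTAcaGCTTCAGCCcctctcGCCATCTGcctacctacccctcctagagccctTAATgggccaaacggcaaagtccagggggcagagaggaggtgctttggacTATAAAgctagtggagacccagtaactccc
Ins2: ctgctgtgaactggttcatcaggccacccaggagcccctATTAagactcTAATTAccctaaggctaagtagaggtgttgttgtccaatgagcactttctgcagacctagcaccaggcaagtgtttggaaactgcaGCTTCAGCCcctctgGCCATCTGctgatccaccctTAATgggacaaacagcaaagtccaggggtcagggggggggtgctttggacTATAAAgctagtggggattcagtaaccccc
Iapp: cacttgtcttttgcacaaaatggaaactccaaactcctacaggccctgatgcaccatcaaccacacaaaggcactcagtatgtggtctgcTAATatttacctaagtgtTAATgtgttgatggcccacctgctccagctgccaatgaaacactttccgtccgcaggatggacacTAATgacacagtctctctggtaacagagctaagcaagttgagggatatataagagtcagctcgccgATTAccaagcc
Gcg: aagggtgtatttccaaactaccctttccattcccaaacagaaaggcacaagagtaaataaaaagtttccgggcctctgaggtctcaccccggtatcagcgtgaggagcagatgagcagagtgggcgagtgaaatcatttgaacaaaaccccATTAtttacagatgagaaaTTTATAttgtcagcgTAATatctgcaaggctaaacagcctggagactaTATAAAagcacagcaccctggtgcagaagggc

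The Ins1 and Ins2 stretches were identical at 205 of 238 aligned bases (86.1%), with 24 gap positions. The letters GCCATCTG, the insulin E box to which Neurod1 binds with its partner, occurred in Ins1 at 238 and 112 bases before the start and in Ins2 at 100 bases before it. The letters GCTTCAGCC of the C1 element, the known site of Mafa, occurred once in each, 127 bases before the Ins1 start and 115 before that of Ins2. TGACGTC occurred 185 bases before the Ins1 start and had no match in the Ins2 window. TAAT, the core that Pdx1 and other homeodomain factors bind, overlapped itself in places and had 6 matches in Ins1, 4 in Ins2, 4 in Iapp and 2 in Gcg. In the promoters searched but not printed, it had 5 matches in Sst, 0 in Ppy and 0 in Pyy. Among 33469 rat promoters of this length, GCCATCTG occurred in 0.998%, GCTTCAGCC in 0.433%, TGACGTC in 2.8%, TATAAA in 12.9% and TAAT in 57%. These matches describe the letters and are not evidence of binding.

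Signals were on a linear scale with a trimmed mean of 250.1 on every array. Array medians ran from 69.1 to 80.2 and the brightest probe set of an array from 8738 to 11366, the latter on RS replicate 2. Changes were fitted by limma on quantile-normalized log2(signal + 16), with Benjamini-Hochberg adjustment over all probe sets, and a positive log2 fold change means a higher level in CRI-G1-RS. At an adjusted p of 0.05, 4 of the 10 hormone genes differed between the lines, against a background of 31.7% of all probe sets. Ins2 and Penk were higher in CRI-G1-RS, where 16.3% of all probe sets were, and Cck and Sct were lower, where 15.4% were. The same 4 genes had signals that did not overlap between the lines, as did 20.3% of all probe sets. Ins2, Penk and Sct differed by at least 2-fold, which 3.95% of all probe sets did. Of the 6 hormone genes whose signal averaged 100 or more, 3 were called, against 52.2% of all probe sets that bright. The median log2 fold change was -0.03 over the hormone genes and 0.01 over all probe sets, and the median absolute change was 0.24 against 0.19. Brightness depends on a probe set's own affinity, so levels were not compared between genes, and the ranks and sums given below describe signals and not transcript amounts.

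**Figure D1:**
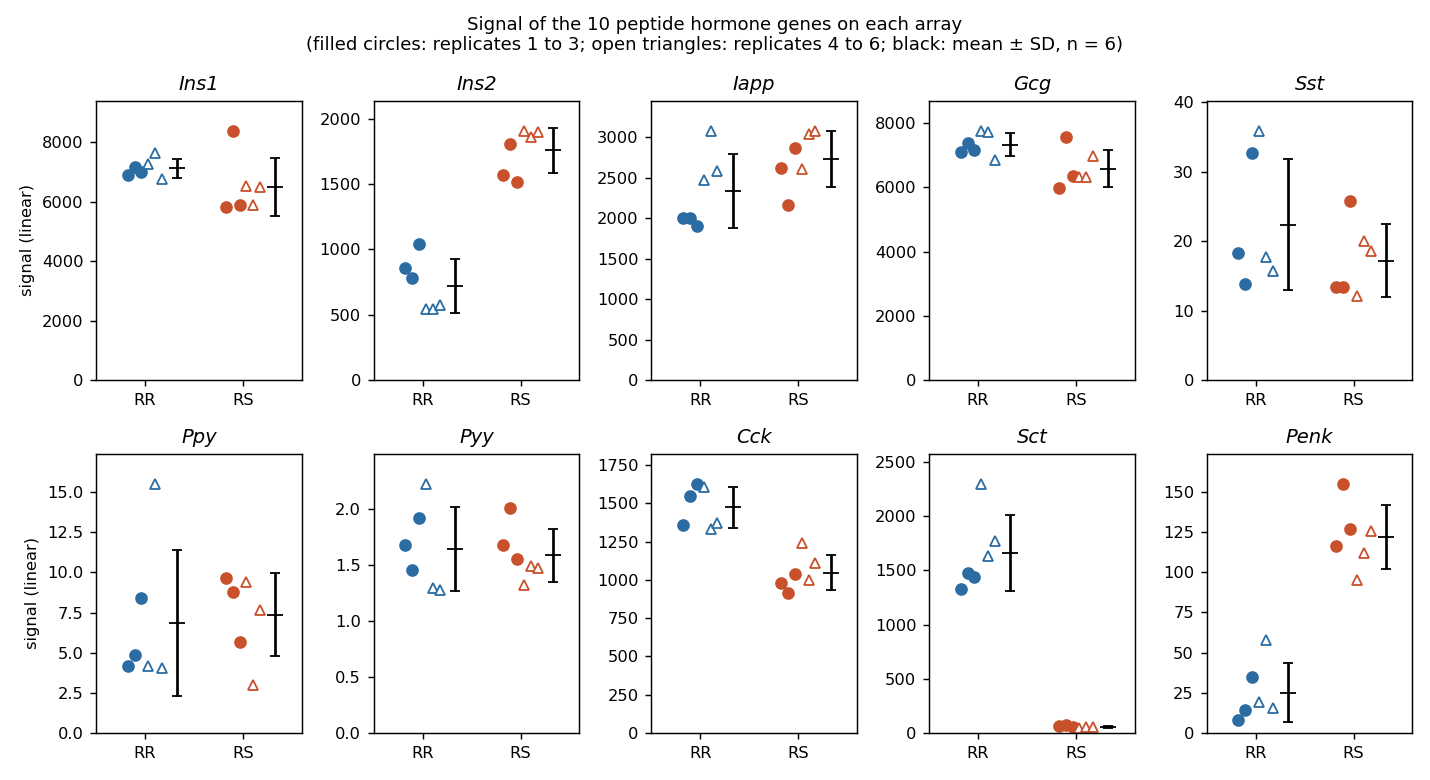
Signal (linear scale from 0, a separate scale per gene) of each hormone gene on the 6 arrays of each line, with replicates 1 to 3 as filled circles, replicates 4 to 6 as open triangles, and mean ± SD in black. Ins2, Cck, Sct and Penk separate the lines completely, and the RR arrays of Ins2 fall into replicates 1 to 3 above replicates 4 to 6.

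Of the insulin genes, the Ins2 probe set differed between the lines and the Ins1 probe set did not pass the test. Ins2 had signals of 860.0, 778, 1041, 543, 541 and 571 in CRI-G1-RR replicates 1 to 6, and of 1566, 1809, 1518, 1909, 1858 and 1898 in CRI-G1-RS replicates 1 to 6. Every RS array lay above every RR array. The means were 722 ± 206 (SD, n = 6) and 1759.7 ± 173 (SD, n = 6), a ratio of 2.44. The log2 fold change was 1.30 (SE 0.16, 95% interval 0.96 to 1.65, limma adjusted p = 2.97e-05), with an exact two-sided permutation p of 0.00216, the smallest that 6 arrays against 6 can give. In bulk RNA such a difference cannot separate fewer expressing cells from less transcript per cell, and this holds for all genes below.

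Ins1 gave 6901, 7163, 6989, 7268, 7628 and 6759 in CRI-G1-RR and 5831, 8383, 5875, 6516, 5871 and 6497 in CRI-G1-RS. In CRI-G1-RS 5 of the 6 arrays lay below all RR arrays, and replicate 2 lay above them all. The means were 7118 ± 309 and 6495 ± 978 (SD, n = 6 each). The difference did not pass the test, with a log2 fold change of -0.06 (95% interval -0.17 to 0.05, limma adjusted p = 0.408; exact permutation p = 0.0758). Within an array, log2 Ins2 minus log2 Ins1 averaged -3.27 ± 0.38 (SD, n = 6) in CRI-G1-RR and -1.90 ± 0.15 (SD, n = 6) in CRI-G1-RS. The shift of 1.37 in this contrast, chosen after the values were seen, left the lines without overlap (exact two-sided permutation p = 0.00216). It compares the change of the probe sets' signals, and whether the transcripts changed unequally was not tested. As their transcripts are closely related, a share of signal at either probe set may come from the other gene, and this was not tested.

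Ins1 was also among the brightest probe sets on the array, ranking 29 by mean signal of 31099. Among the 100 brightest, with mean signals of 5475 to 9676, log2 fold changes ran from -0.42 to 0.57, none reached 2-fold, and the median absolute change was 0.07 against 0.19 over all probe sets. Whether signals this bright still follow transcript abundance was not tested, so neither the change of Ins1 nor its contrast with Ins2 is shown for the transcripts.

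Gcg, which encodes proglucagon, ranked 24 by mean signal and stood in the same range. Its signals were 7088, 7394, 7151, 7766, 7717 and 6859.6 in CRI-G1-RR and 5974, 7563, 6365, 6326, 6332 and 6972 in CRI-G1-RS. As deposited, the RS arrays were mostly the lower ones, with replicates 2 and 6 inside the RR range. On the normalized log2 scale, which the tests used, RS replicates 3, 5 and 6 lay inside that range and replicate 2 below it. Means were 7329 ± 362 and 6589 ± 576 (SD, n = 6 each). The log2 fold change of -0.07 (95% interval -0.17 to 0.03) did not pass the test across all probe sets (limma adjusted p = 0.327), while the exact permutation p of this gene alone, unadjusted, was 0.0216.

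**Figure D2:**
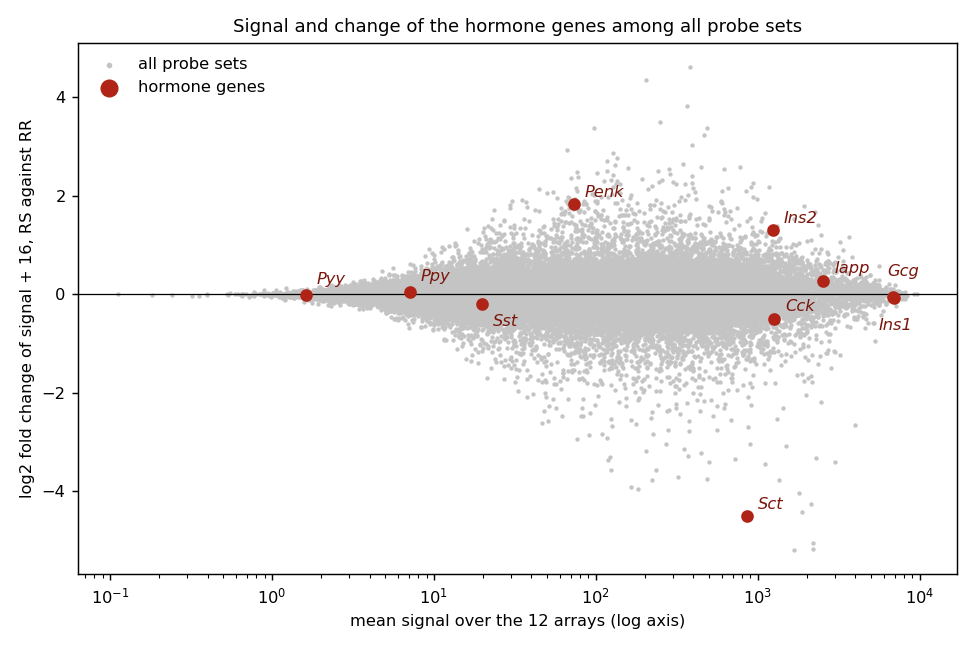
Log2 fold change (RS against RR, signal + 16) of every probe set against its mean signal over 12 arrays on a log axis, all 31099 probe sets in grey and the 10 hormone genes in red. Ins1 and Gcg lie at the bright end, where changes are narrow, Sst, Ppy and Pyy at the dim end, and Sct lies among the strongest decreases.

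Iapp encodes amylin, which beta cells store and release with insulin. It gave 2000.4, 2008, 1902, 2475, 3082 and 2587 in CRI-G1-RR and 2626, 2169, 2869, 2606, 3047 and 3081 in CRI-G1-RS. RR replicates 1 to 3 lay below every RS array, while RR replicates 4 to 6 lay among them or, in replicate 5, just above them. On the normalized log2 scale RR replicate 5 lay among the RS arrays as well. Means were 2342 ± 458 and 2733 ± 342 (SD, n = 6 each), and the log2 fold change of 0.28 (SE 0.12, 95% interval 0.02 to 0.54) did not pass the test (limma adjusted p = 0.0992, exact permutation p = 0.0584). It passed when RR replicate 5 was left out (0.36, limma adjusted p = 0.0213) or RS replicate 2 was (0.35, limma adjusted p = 0.0334), and in 4 other alternatives that kept all 12 arrays.

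The remaining islet hormones were dim. Sst, which encodes the delta cell hormone somatostatin, had a lowest, median and highest signal of 13.9, 18.05 and 35.9 in CRI-G1-RR and 12.0, 15.99 and 25.7 in CRI-G1-RS. Ppy, which encodes pancreatic polypeptide, gave 4.07, 4.54 and 15.5 in CRI-G1-RR and 3.02, 8.23 and 9.68 in CRI-G1-RS. Pyy, which encodes the gut hormone peptide YY, gave 1.27, 1.56 and 2.22 in CRI-G1-RR and 1.32, 1.52 and 2.00 in CRI-G1-RS. The ranges of all 3 genes overlapped between the lines and lay below the median signal of every array. Their log2 fold changes were -0.19 for Sst (limma adjusted p = 0.404), 0.04 for Ppy (limma adjusted p = 0.835) and -0.0025 for Pyy (limma adjusted p = 0.976). Detection calls were not used here, so these signals do not show whether the transcripts were present, and at this brightness the added 16 shrinks any change.

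Of the gut hormones, Sct, the precursor of secretin, showed the strongest contrast of the 10 genes. Its signals were 1328, 1475, 1442, 2302, 1629 and 1774 in CRI-G1-RR and 63.5, 72.8, 52.0, 45.0, 58.8 and 50.3 in CRI-G1-RS. The dimmest RR array was thus far above the brightest RS array. The mean of 1658 ± 352 (SD, n = 6) was 29.1 times that of 57.0 ± 10.1 (SD, n = 6), and the log2 fold change was -4.50 (SE 0.12, 95% interval -4.76 to -4.24, limma adjusted p = 9.02e-11). On the arrays themselves Sct stood at the 94.4 to 97.3 percentile of probe sets in CRI-G1-RR and at the 37.4 to 48.2 percentile in CRI-G1-RS. As the RS signals all lay below their array's median, they were not shown to be above background and the size of the change depended on the added constant, with a log2 fold change of -4.83 with 1 added and -3.81 with 64 added. Sct passed the test with either.

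Cck encodes cholecystokinin, the gut hormone of gallbladder contraction. It gave 1356, 1548, 1629.6, 1606, 1335 and 1373 in CRI-G1-RR and 979, 913, 1037, 1239.8, 1001 and 1109 in CRI-G1-RS. All RS arrays lay below all RR arrays, although RS replicate 4 came close to RR replicate 5. The mean fell by 29.0%, from 1475 ± 135 to 1047 ± 115 (SD, n = 6 each), with a log2 fold change of -0.49 (SE 0.09, 95% interval -0.67 to -0.30, limma adjusted p = 6.13e-04). Cck remained at the 91.2 percentile of probe sets or above on every array of both lines.

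Penk encodes proenkephalin, the precursor of the opioid enkephalins. It gave 8.02, 14.1, 34.9, 19.5, 57.9 and 15.7 in CRI-G1-RR and 117, 155, 127, 95.1, 112 and 125 in CRI-G1-RS. The groups did not overlap, and RR arrays scattered widely, with replicates 3 and 5 highest. Means were 25.0 ± 18.5 and 122 ± 19.96 (SD, n = 6 each), and the log2 fold change was 1.83 (SE 0.23, 95% interval 1.34 to 2.32, limma adjusted p = 3.54e-05). Since the RR signals lay near the added constant, the size depended on it, and the log2 fold change was 2.48 with 1 added and 1.07 with 64 added. Penk passed the test with either.

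**Figure D3:**
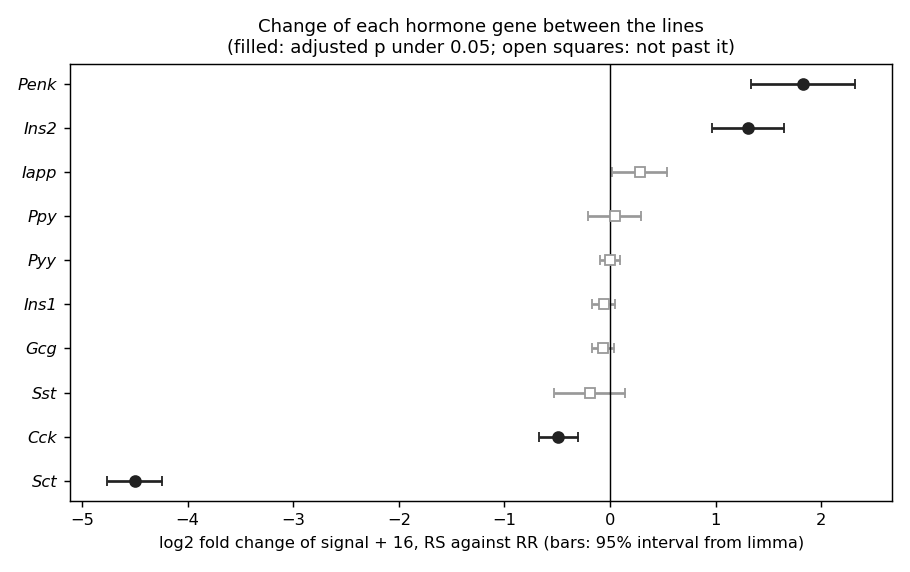
Log2 fold change of signal + 16 (RS against RR) of the 10 hormone genes, with 95% intervals from limma. Filled circles passed an adjusted p of 0.05 (Penk, Ins2, Cck and Sct) and open squares did not.

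Several hormone genes differed within CRI-G1-RR between replicates 1 to 3 and replicates 4 to 6. The labels do not say what separates these passages. Ins2 averaged 893 ± 135 (SD, n = 3) in replicates 1 to 3 and 552 ± 16.9 (SD, n = 3) in replicates 4 to 6, without overlap. Iapp went the other way, from 1970.0 ± 58.9 to 2715 ± 323 (SD, n = 3 each), as did Sct, from 1415 ± 77.1 to 1902 ± 354 (SD, n = 3 each), also without overlap. Within CRI-G1-RS, Ins2 also separated, in the other direction, from 1631 ± 156 to 1888 ± 26.5 (SD, n = 3 each). Iapp and Sct overlapped there. These differences were not tested, and the arrays were divided after earlier results were known. The share of all probe sets that separate in this way was not counted, so the hormone genes were not shown to stand out. The lines were also compared within each set of replicate numbers. The numbers were not shown to match passages of the lines, so these sets divide the arrays by number only. The change of Ins2 between the lines was 0.85 (SE 0.14, limma adjusted p = 0.0103) within replicates 1 to 3. Within replicates 4 to 6 it was 1.76 (SE 0.07, limma adjusted p = 1.29e-04). For Cck the values were -0.63 (SE 0.10, limma adjusted p = 0.0103) and -0.34 (SE 0.12, limma adjusted p = 0.110), so it did not pass within replicates 4 to 6. Sct and Penk passed in both, Sct at -4.18 and -4.83 and Penk at 2.19 and 1.47.

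**Figure D4:**
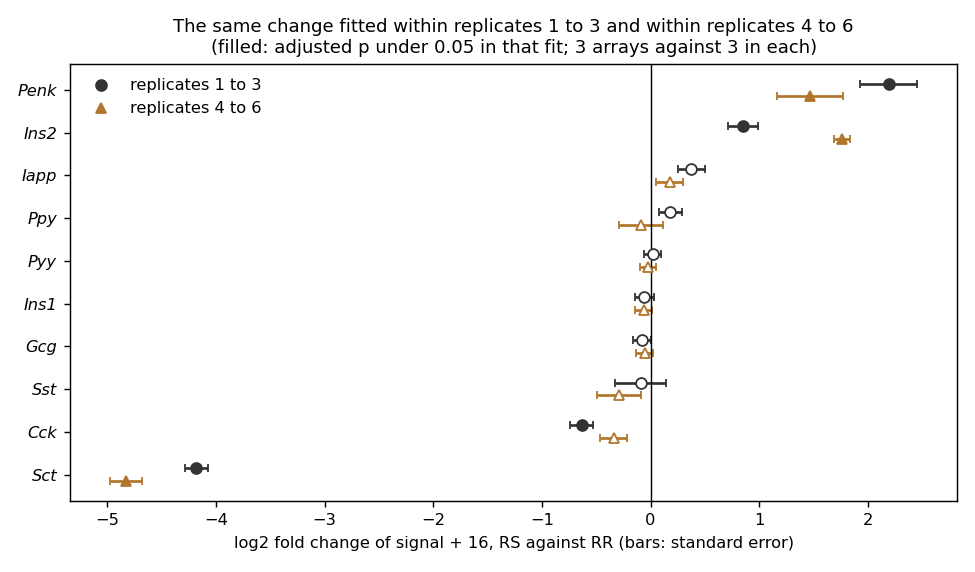
Log2 fold change of signal + 16 (RS against RR) of each hormone gene fitted within replicates 1 to 3 (circles) and within replicates 4 to 6 (triangles), with standard errors from limma, 3 arrays against 3 in each. Filled symbols passed an adjusted p of 0.05, and Ins2 moved most between the fits, from 0.85 to 1.76.

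Genes that act on or with these hormones were taken as lists, 1 probe set per gene, against a background of 39.2% of 14218 genes called, 21.0% higher and 18.3% lower. Of 17 measured genes of prohormone processing and granins, 6 were higher in CRI-G1-RS, 2 were lower and 9 did not pass, with a median log2 fold change of 0.07. The convertase Pcsk2, which cuts proinsulin and proglucagon, rose from 1083 ± 53.6 to 2109.7 ± 155 (log2 fold change 0.97, limma adjusted p = 9.17e-08), and the granin Scg2 rose from 706 ± 59.9 to 1328 ± 108 (0.89, limma adjusted p = 6.61e-07). Pcsk1n, which inhibits Pcsk1, was also higher (0.35), and the peptide-modifying enzymes Pam, which amidates C termini, and Qpct, which cyclizes N-terminal glutamine, were lower (-0.24 and -0.23). Within replicates 1 to 3 alone Pam (-0.25) and Pcsk1n (0.22) did not pass. Within replicates 4 to 6 Pam (-0.24) and Qpct (-0.12) did not.

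Of 51 other peptide hormones and neuropeptides measured, 7 were higher, 7 lower and 37 did not pass, with a median of 0.01, and 46 had a mean signal under 100. Tff3, the trefoil peptide of goblet cells, fell from 3421 ± 490.1 to 192 ± 36.4 (SD, n = 6 each), and Guca2b, the precursor of uroguanylin, fell from 493 ± 40.6 to 47.3 ± 8.60. Guca2a, the precursor of guanylin, was lower by a smaller step (-0.86). Stc1, a stanniocalcin, rose from 206 ± 15.8 to 626 ± 55.1, Igf2 rose from 819 ± 78.9 to 1458 ± 100.1, and Ghrl, the precursor of ghrelin, rose from 12.8 ± 3.75 to 39.1 ± 12.7 with overlapping arrays. Ghrl (0.74) and Guca2a (-0.88) did not pass within replicates 1 to 3 alone.

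Among 26 receptors and receptor partners of these peptides and their close relatives, 5 were higher, 1 was lower and 20 did not pass, with a median of 0.03. Sstr1, a somatostatin receptor, fell from 307 ± 33.4 to 81.0 ± 13.0 (-1.76, limma adjusted p = 5.95e-08). Npy1r and Npy4r, receptors for peptides of the pancreatic polypeptide family, were higher (1.27 and 0.62) but dim, at means of 34.8 and 23.6 in CRI-G1-RS, and Npy4r did not pass within replicates 4 to 6. Ramp2, a partner of calcitonin-type receptors, rose from 487 ± 50.4 to 766 ± 67.5. Sctr, the receptor of secretin, had means of 4.38 and 5.97 and did not pass (limma adjusted p = 0.664), a gene named here after its values were seen.

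Of 26 islet and enteroendocrine transcription factors, 11 were higher, 5 lower and 10 did not pass, with a median of 0.17. Mafa, which binds the C1 element printed above, rose from 426 ± 137 to 1908 ± 177 (2.17, limma adjusted p = 9.48e-07). Pax4 and Nkx6-1, both needed for beta cell formation, were higher (1.45 and 1.31), and so was Neurod1, the E box factor, at 2400.1 ± 289.5 and 4335 ± 384 (0.90). Hnf4a, a nuclear receptor, fell from 643 ± 53.5 to 61.0 ± 14.3 (-3.13), with Irx2, an alpha cell factor, at -1.30 and Onecut1 at -0.77. The other lower genes were Crem (-0.63) and the bright Pax6, from 2580 ± 176 to 1830 ± 54.3 (-0.46), both named after their values were seen. Whether any of these factors acts on the hormone genes was not tested.

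**Figure D5:**
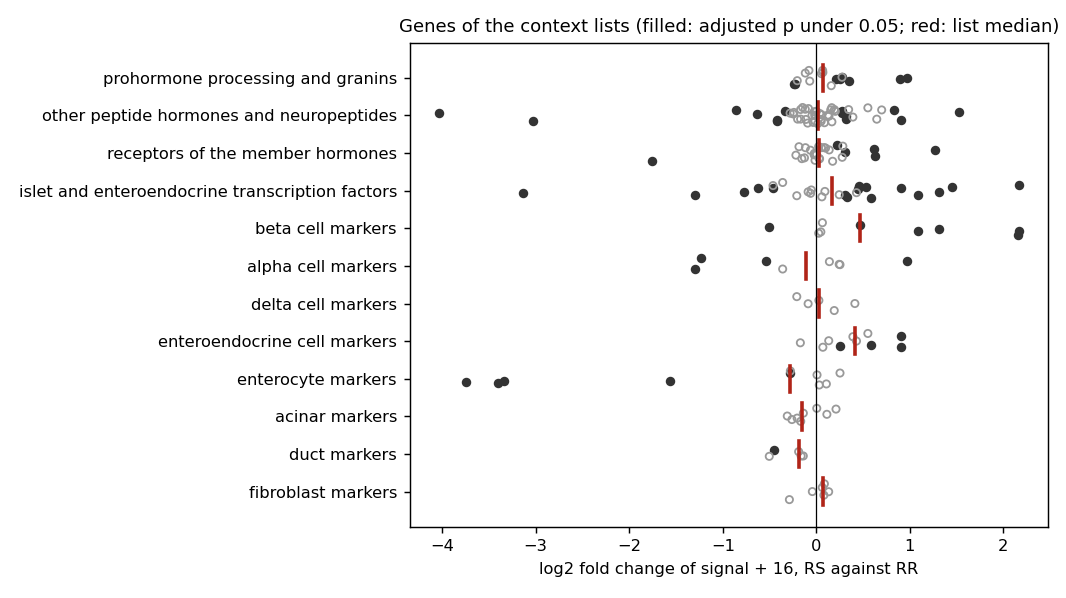
Log2 fold change of signal + 16 (RS against RR) of each measured gene in 12 lists, filled where the adjusted p was under 0.05, with the list median in red. Enterocyte markers include the strongest decreases beside Tff3, while acinar, fibroblast and delta cell markers hold no called gene in this fit.

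Marker lists were read to see which cell types the signals resembled. Of 15 beta cell markers listed, 9 were measured, of which 5 were higher, 1 lower and 3 did not pass. The lists share genes, and Mafa and Nkx6-1 were also counted among the transcription factors. The summed signal was 2413 to 2973 in CRI-G1-RR and 5312 to 6539 in CRI-G1-RS, and most of its rise came from Mafa and Ero1b. Ero1b, a thiol oxidase of insulin folding, rose from 230.4 ± 57.1 to 1069 ± 67.4 (2.16). Slc2a2, the beta cell glucose transporter, was near the bottom of the array in both lines, at means of 9.70 and 1.64, and its call (-0.51, limma adjusted p = 0.0436) was lost when any of 10 of the 12 arrays was left out, the exceptions being RR replicates 2 and 3. Of 8 alpha cell markers, 1 was higher, Pcsk2, and 3 were lower, Irx2, Gc (from 4564 ± 438 to 1892 ± 340.1) and Dpp4, and the last did not pass within replicates 4 to 6. None of 5 delta cell markers passed.

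Of 10 enteroendocrine markers, 4 were higher, 0 lower and 6 did not pass, and 6 of the 10 had a mean signal under 100. With the deposited scaling alone, 3 were higher. Sct and Cck, which enteroendocrine cells also make, are not on this list and were lower in CRI-G1-RS. Cdx2, the intestinal homeodomain factor, rose from 647 ± 85.7 to 977 ± 57.2 (0.59), beside Ghrl and Neurod1. Of 10 enterocyte markers, 5 were lower and 0 higher, and their summed signal was 7380 to 8918 in CRI-G1-RR and 691 to 987 in CRI-G1-RS. Vil1, a protein of the brush border, fell from 919.5 ± 91.3 to 54.9 ± 11.7, Lgals4, a gut galectin, from 5469 ± 306 to 497 ± 82.7, and Cdh17, an intestinal cadherin, from 1330.5 ± 297 to 116 ± 22.7. These moved with Sct, and their part in its difference was not tested. Si, the brush border sucrase-isomaltase, was also lower, from 212 ± 43.3 to 63.0 ± 21.1 (-1.56), as was the dim Alpi, at means of 10.6 and 5.69. The other 5, Fabp1, Fabp2, Apoa1, Apoa4 and Krt20, did not pass and averaged under 100, and these genes, Si and Alpi are named after their values were seen. Most of the summed signal in CRI-G1-RR came from Lgals4. The 8 acinar and 6 fibroblast markers all had mean signals under 100 and none passed, and of 5 duct markers only Krt7 did (-0.46).

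For the members with the highest and the lowest log2 fold change, the genes with the most similar pattern over the 12 arrays were sought among probe sets with a mean signal of at least 100. For Penk they were Trim35 (Pearson r = 0.975), Tmem109 (0.975) and Cdx2 (0.973), and for Sct they were Cenpk (0.998), Pidd1 (0.997) and Nr1h4 (0.996). The arrays fall into a cluster per line, so these values mostly describe the difference between the lines. Trim35 and Tmem109 were higher in CRI-G1-RS (0.34 and 0.57), and Cenpk (-0.99), Pidd1 (-1.18) and Nr1h4 (-3.94), which encodes the bile acid receptor, were lower.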

How the data were processed

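Total RNA of 6 samples per line was read on 1-colour Affymetrix oligonucleotide arrays (Rat 230 2.0). The deposited values are linear signal intensities made with GCOS 1.4, per the labels, and on every array they had the same mean after trimming 2% at each end, as scaling would give. The methods of the study describe log2 values from another summarization, which these are not. Scanner files, detection calls and scan dates were not analysed here, so array number and signal limit the precision.

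Intensities were quantile-normalized between arrays, turned into log2(signal + 16) and fitted with cell line as the only term in limma 3.58.1 (R 4.3.3), with Benjamini-Hochberg adjustment over 31099 probe sets. Fold changes are on that scale, which understates changes of dim genes. Single-array signals, means and SDs are as deposited. Genes were named from the platform annotation, in which 20832 probe sets carry a single symbol. For genes in lists the probe set with the highest mean signal stood for the gene, and 25 of 187 listed genes had none. Exact permutation tests were two-sided and used the normalized log2 values (scipy 1.17.1). On simulated data for this comparison over 31099 probe sets, 78 of 100 changes of 1.5-fold and 95 of 100 of 2-fold were recovered, with 4 false calls. The changes were placed only in probe sets with a mean signal of at least 100, with independent normal noise. Far fewer probe sets were changed than were called in the data. These rates therefore do not cover dimmer genes such as Sst, Ppy, Pyy and Penk.

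The hormone genes, lists and tests were chosen with earlier results of these data known. Beside the hormone genes, up to 3 genes called in each direction with the greatest change were named per list, and the 3 genes most like the highest and lowest hormone gene. The replicates are passages of a line, so p-values measure the spread between passages. Alternatives were other normalizations, pseudocounts, a filter on signal, the replicate number or replicates 1 to 3 against 4 to 6 as a term, each of those sets alone, an intensity trend, array weights, leaving out cross-hybridizing probe sets and leaving out each array. Promoters came from RefSeq (GRCr8) and matched 7 of 10 genes; Cck, Sct and Penk had no entry.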

Additional observations from a re-analysis of the deposited data

Results flagged for a closer look

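Dixon's test was applied to the normalized log2 values of 20 sets of 6 arrays, a set being 1 hormone gene in 1 line. In 2 sets it put an array apart from the others, which chance does in about 1 of 20 sets. For Ins1 in CRI-G1-RS it was replicate 2, with a signal of 8383. On the normalized log2 scale its gap to the next array took a 0.637 share of the range. The log2 fold change of Ins1 without this array was -0.08 (limma adjusted p = 0.180). The same array had the highest maximum signal of all 12, 11366. For Ppy in CRI-G1-RR it was replicate 5, with a signal of 15.5 and a share of 0.682 on the normalized log2 scale. The causes were not tested.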

How the results depend on the processing

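Ins2 and Sct passed the test in all 24 alternatives, Penk in all 23 that held it, and Cck in 23 of 24. Ins1, Gcg, Sst, Ppy and Pyy passed in none, with Ins1 between -0.16 and -0.05 and Gcg between -0.18 and -0.05. Iapp passed in 6 of 24. From 3 to 5 of the hormone genes were called in any alternative, while the share of all probe sets called varied. Within replicates 1 to 3 this share was 16.4%, beside 4 of 10 hormone genes. Within replicates 4 to 6 it was 20.2%, beside 3 of 10. With a minimum mean signal of 100 it was 59.1%, beside 4 of the 6 hormone genes kept. In the other alternatives it ran from 29.5% to 33.8%. The labels say that passages were taken in pairs, but not which samples form a pair. The same-numbered samples of the lines had correlations of -0.06 to 0.08 between their deviations, none over 0.1, and samples did not each correlate best with their own number, so the numbers were not taken to pair the samples. With the replicate block, 5 of 10 hormone genes and 9204 of 31099 probe sets were called, Iapp being added (limma adjusted p = 0.0485), and 0 beta cell markers were lower, where 1 was without it. With the deposited scaling alone, 1 acinar marker was lower, where 0 were otherwise. Iapp also passed with a minimum mean signal of 100 (limma adjusted p = 0.0467), with replicates 1 to 3 against 4 to 6 as a term (0.0372) and with array weights (0.0191). Only changes near 0 turned direction, Pyy to 0.0199 within replicates 1 to 3 and Ppy to -0.0906 within replicates 4 to 6, while Pyy ran from -0.0074 to 0.0068 when single arrays were left out. The causes were not tested. As each hormone gene has 1 probe set, choosing the one with the smallest p gave no other value. For the named genes of the lists, 712 repeats kept the call and 21 lost it, mostly those of Slc2a2.

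Signal over background limits Sst, Ppy and Pyy, which were below every array's median. It also limits the size of the Penk and Sct changes, since Penk in CRI-G1-RR and Sct in CRI-G1-RS lay below the median of their own arrays. At the bright end, Ins1 and Gcg lay among the 100 brightest probe sets by mean signal over both lines, none of which changed by 2-fold.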
